A study of Mus musculus with 9 samples.

Results

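The 8 loci described here hold genes that direct the first lineage choices of the embryo. They are 3 endoderm regulators (Sox17, Gata6 and Foxa2), 2 mesoderm regulators (T and Eomes) and 3 neural regulators (Pax6, Sox1 and Olig2). Each locus is a fixed window of the mouse genome build mm9 around a named gene. The genes were chosen with earlier results of these data known. Together the windows held 1386 CpG positions read at least 10 times in all 5 deposited tables, out of 1263118 such positions in the genome.

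All of these genes encode transcription factors that embryonic stem cells keep largely silent and switch on at differentiation. Such genes are known for long stretches of CpG-rich DNA over their starts, which stay free of DNA methylation in pluripotent cells and carry histone marks of both active and repressed chromatin. Dnmt3a adds methyl groups to unmethylated CpGs, and its ADD domain binds the tail of histone H3 when lysine 4 carries no methyl group. Dnmt3a2 is the shorter isoform of the enzyme.

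The cells were J1 mouse embryonic stem cells at passages 7 to 10, grown under conditions the labels call standard, and every group had a Dnmt TKO background, in which the cells' own DNA methyltransferases are missing. TKO was 1 sample with no construct. WT carried wild-type Dnmt3a2, and WWD and R carried mutant Dnmt3a2 constructs known here by these names only. C had no construct in its labels. WT, WWD, R and C had 2 numbered samples each, 9 samples in all, and the labels name 1 table for both samples of a group. Each table is called a pool below. No spread between samples could be measured, so every test below compares the reads of 2 pools and not 2 conditions. Whether a construct line was 1 clone, and how much protein it made, are not given in the sources used here.

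Reduced representation bisulfite sequencing reads CpGs near CCGG sites, where the enzyme MspI cuts. The measure throughout is the methylation level, the percent of reads that show a methylated C, averaged over CpG positions, each strand counted apart. The 8 loci were read with a median coverage of 86 (TKO) to 123 (R) reads per position, and 132911 to 179158 read calls per pool. Intervals are 95% Wilson or Newcombe intervals on read calls. They cover counting error only and are too narrow, since a read counts once for each CpG it spans and PCR copies are not separated. The tile tests below count reads in the same way, so their p-values are too small. PCR copies affect the tests of single positions as well. A position is called full depth where TKO coverage was at least 0.5 times WT coverage, and reduced depth otherwise. The 984 full-depth positions of the 8 loci had median coverages of 122 to 149 reads in the 5 pools. The 402 reduced-depth positions were read less, with medians of 15 (TKO), 24 (WWD), 49 (C), 81 (R) and 104 (WT). Depth therefore moved with the pools being compared, and full-depth values are given beside many of the results. The part of depth in the results was not tested.

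Where RefSeq promoter sequences could be placed on the measured positions, some of the CpGs behind the levels can be shown. RefSeq (GRCm38.p6) sequences were at hand for 6 of the 8 genes, and 5 transcript starts of 3 genes (Foxa2, Pax6 and Olig2) were placed on mm9 by the spacing of their CpGs, with at least 8 matched CpGs and no mismatch. The 250 bases before 4 of these starts follow, 5′ to 3′ along the gene, with the CpGs read in all 5 pools in capitals. They are shown because the levels at these starts differ, from 0.887% in WT at Olig2 start 1 to 8.54% at Pax6 start 2. These levels also count the 50 bases after the start, which are not shown. At Foxa2 start 1 the highest WT position, at 17.1%, lies there, 13 bases after the start. The Pax6 sequences lie at chr2:105508803-105509052 and chr2:105522370-105522619 (mm9, plus strand), the Foxa2 sequence at chr2:147872706-147872955 (minus strand) and the Olig2 sequence at chr16:91225545-91225794 (plus strand).
Pax6 start 1: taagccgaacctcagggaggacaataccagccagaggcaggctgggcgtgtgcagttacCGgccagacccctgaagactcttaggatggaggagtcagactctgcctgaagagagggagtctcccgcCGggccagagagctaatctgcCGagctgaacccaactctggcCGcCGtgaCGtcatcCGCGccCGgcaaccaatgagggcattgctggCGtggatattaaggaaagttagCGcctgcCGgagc
Pax6 start 2: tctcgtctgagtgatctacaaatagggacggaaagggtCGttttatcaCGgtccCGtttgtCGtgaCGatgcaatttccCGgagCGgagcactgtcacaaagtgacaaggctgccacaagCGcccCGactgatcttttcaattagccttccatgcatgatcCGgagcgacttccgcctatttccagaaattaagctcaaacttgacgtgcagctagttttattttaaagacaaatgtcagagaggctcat
Foxa2 start 1: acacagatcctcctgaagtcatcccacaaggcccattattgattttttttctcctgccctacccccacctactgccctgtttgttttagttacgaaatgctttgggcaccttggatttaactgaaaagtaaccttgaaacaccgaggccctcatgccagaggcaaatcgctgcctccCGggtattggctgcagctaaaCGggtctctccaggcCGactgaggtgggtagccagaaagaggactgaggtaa
Olig2 start 1: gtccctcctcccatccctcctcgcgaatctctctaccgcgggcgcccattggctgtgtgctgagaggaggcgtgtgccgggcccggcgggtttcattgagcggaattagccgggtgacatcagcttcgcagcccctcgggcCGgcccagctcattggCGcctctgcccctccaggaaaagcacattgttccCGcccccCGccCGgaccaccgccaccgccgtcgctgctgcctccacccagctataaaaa

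Each sequence holds at least 1 CCGG, read on both strands since the motif is its own complement, as do 52.8% of the 32851 promoters of 300 bases in the RefSeq table. The numbers of CCGG in the order shown were 4, 2, 1 and 5, and the numbers of CpGs read in all 5 pools were 12, 10, 3 and 5.

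In the pool with wild-type Dnmt3a2 the 8 loci were far less methylated than the genome as a whole. The mean level over the 8 loci was 0.414% (TKO), 0.227% (C), 4.72%, interval 4.62 to 4.82 (WT), 2.79%, interval 2.70 to 2.87 (WWD) and 5.77%, interval 5.66 to 5.87 (R). Over all common positions of the genome the levels were 0.501%, 0.334%, 14.7%, 6.20% and 15.4% in the same order. The order of the pools was thus the same in both, with TKO and C lowest and WWD between them and WT. Of the 1386 positions, 43.9% had no methylated read in WT, 60.2% had none in WWD and 88.0% had none in TKO. In the genome these shares were 42.4%, 53.7% and 86.5%, so those of WT and TKO were near the genome's. Only 6.49% of the positions of the 8 loci exceeded 20% methylation in WT, against 28.6% of positions in the genome. These contrasts are not matched for CpG density. Tiles of 1 kb with at least 20 common positions held 1010 of the 1386 positions, against 592884 of 1263118 in the genome. Levels inside and outside such tiles are given below.

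At full depth the 8 loci stood at 0.157% (TKO), 0.215% (C), 4.68% (WT), 1.82% (WWD) and 5.35% (R). WWD minus WT was -1.93 percentage points (-2.06 to -1.80) over all positions. At full depth it was -2.86 points (-2.99 to -2.72). At the reduced-depth positions WWD was level with WT, at 5.15% against 4.82%, a difference of 0.333 points with an interval from -0.111 to 0.800. TKO read 1.04% at those positions, against 0.157% at full depth.

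The loci differed widely in WT level, and also in how many of their positions lay in CpG-dense stretches, as given below. At Sox17, a regulator of definitive endoderm, the level was 0.210% (TKO), 0.260% (C), 0.865% (WT), 0.905% (WWD) and 1.29% (R). At Gata6, which drives primitive endoderm, it was 0.425%, 0.226%, 4.04%, 1.91% and 4.78% in the same order. At Foxa2, a pioneer factor of endoderm and floor plate, it was 0.593%, 0.207%, 2.78%, 2.83% and 4.21%. Among the endoderm loci, WWD was below WT beyond the interval only at Gata6 when all positions were used.

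T, the Brachyury gene of the primitive streak and notochord, had the highest WT level, with 0.260% (TKO), 0.181% (C), 11.4% (WT), 4.88% (WWD) and 12.9% (R). Eomes, a T-box factor of mesendoderm, had 0.478%, 0.253%, 2.85%, 2.65% and 3.10%. The mesoderm pair thus held both the highest window in WT among these loci and one close to Foxa2 in WT level. Even T was below the WT level of the genome given above.

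Among the neural loci, Pax6, the eye and forebrain regulator, had 0.340% (TKO), 0.178% (C), 8.78% (WT), 4.84% (WWD) and 10.4% (R). Sox1, an early neuroectoderm factor, had 0.633%, 0.325%, 3.44%, 1.89% and 4.50%. Olig2, a factor of motor neuron and oligodendrocyte precursors, had 0.284%, 0.183%, 5.99%, 2.96% and 7.58%. All neural loci had WWD below WT beyond the interval.

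Over all positions the interval of WWD minus WT lay below 0 in 5 of the 8 loci and held 0 in Sox17, Foxa2 and Eomes. At full depth WWD was below WT in all 8 loci, beyond the interval in 7, with Sox17 the exception (-0.259 points, -0.520 to 1.37e-05). The full-depth differences ranged from there to -5.89 points (-6.63 to -5.16) at T, and the level in WWD was 0.301 to 0.769 times that in WT. At Foxa2 the full-depth levels were 2.36% in WT and 1.19% in WWD, and at Eomes 2.76% and 1.50%. The 2 depth classes thus gave unlike answers at these loci: at their reduced-depth positions WWD read 6.79% against 3.78% at Foxa2 and 5.99% against 3.11% at Eomes.

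**Figure D1:**
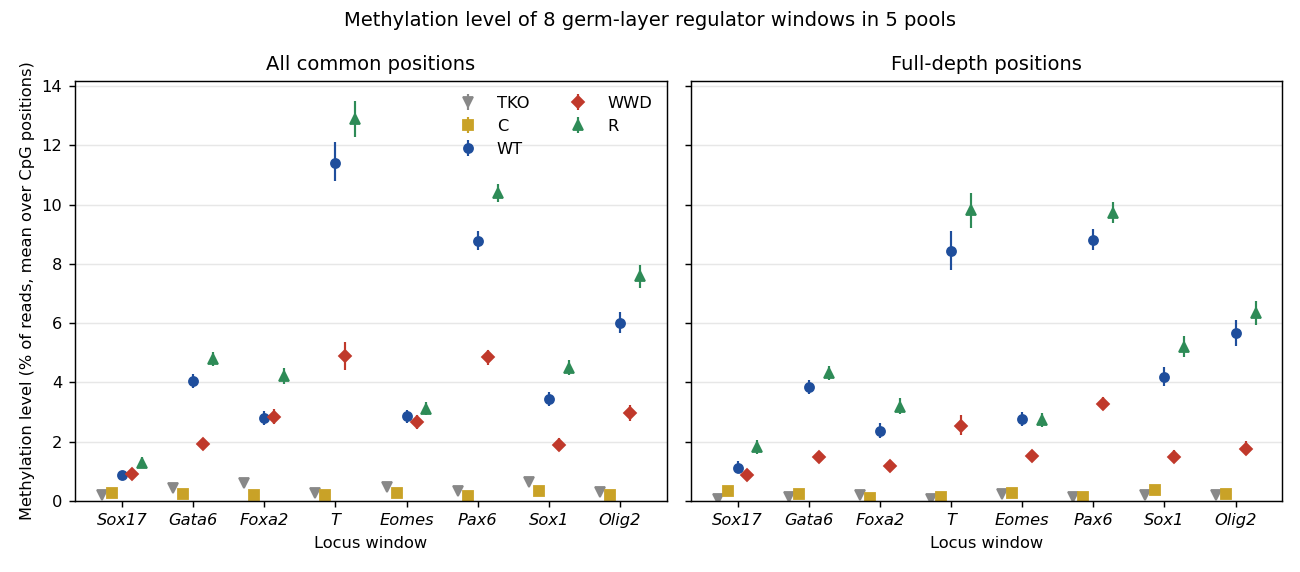
Mean methylation level (percent of reads, y axis) of each locus window (x axis) in the 5 pools, over all common CpG positions (left) and full-depth positions (right); points are pools and bars are 95% Wilson intervals on read calls, which cover counting error only. WT ranges from 0.865% at Sox17 to 11.4% at T, and at full depth the WWD point lies below the WT point at all 8 loci. The windows differ in their share of CpG-dense positions.

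Pooled over the 8 loci, WT was more methylated in tiles farther from the CpG-dense ones. Windows were divided into tiles of 1 kb, of which 79 held a common position and 60 held at least 5. A tile with at least 20 common positions is called dense, and 27 tiles with 1010 of the 1386 positions were dense. In the genome 592884 of 1263118 positions were in dense tiles. Dense tiles held all 159 common positions of Sox17 but 25 of the 66 at T. Inside dense tiles these 2 loci were close in WT, at 0.865% and 0.962%. In WT the level was 2.24% in dense tiles of the 8 loci, 7.23% in the next tile, 12.7% at 2 to 4 tiles and 20.8% at 5 or more tiles away. In the genome the same steps were 1.23%, 5.96%, 24.1% and 29.2%. The 8 loci were therefore higher than the genome inside dense tiles and next to them, and lower further out. Different loci make up the steps: the last held Gata6, T and Pax6 alone, with 55 of its 75 positions from Pax6. Single loci did not all follow the pooled order. WT was lower at 2 to 4 tiles than in the next tile at Gata6 (5.56% against 9.77%), Olig2 (6.41% against 7.49%) and Eomes (8.23% against 8.54%). At full depth Olig2 had the other order (8.10% against 6.63%). In WWD the steps at the 8 loci were 1.65%, 4.81%, 6.41% and 7.81%, so that WWD stood at 0.739 times WT in dense tiles and 0.376 times WT at 5 or more tiles away. At full depth these ratios were 0.510 and 0.280.

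**Figure D2:**
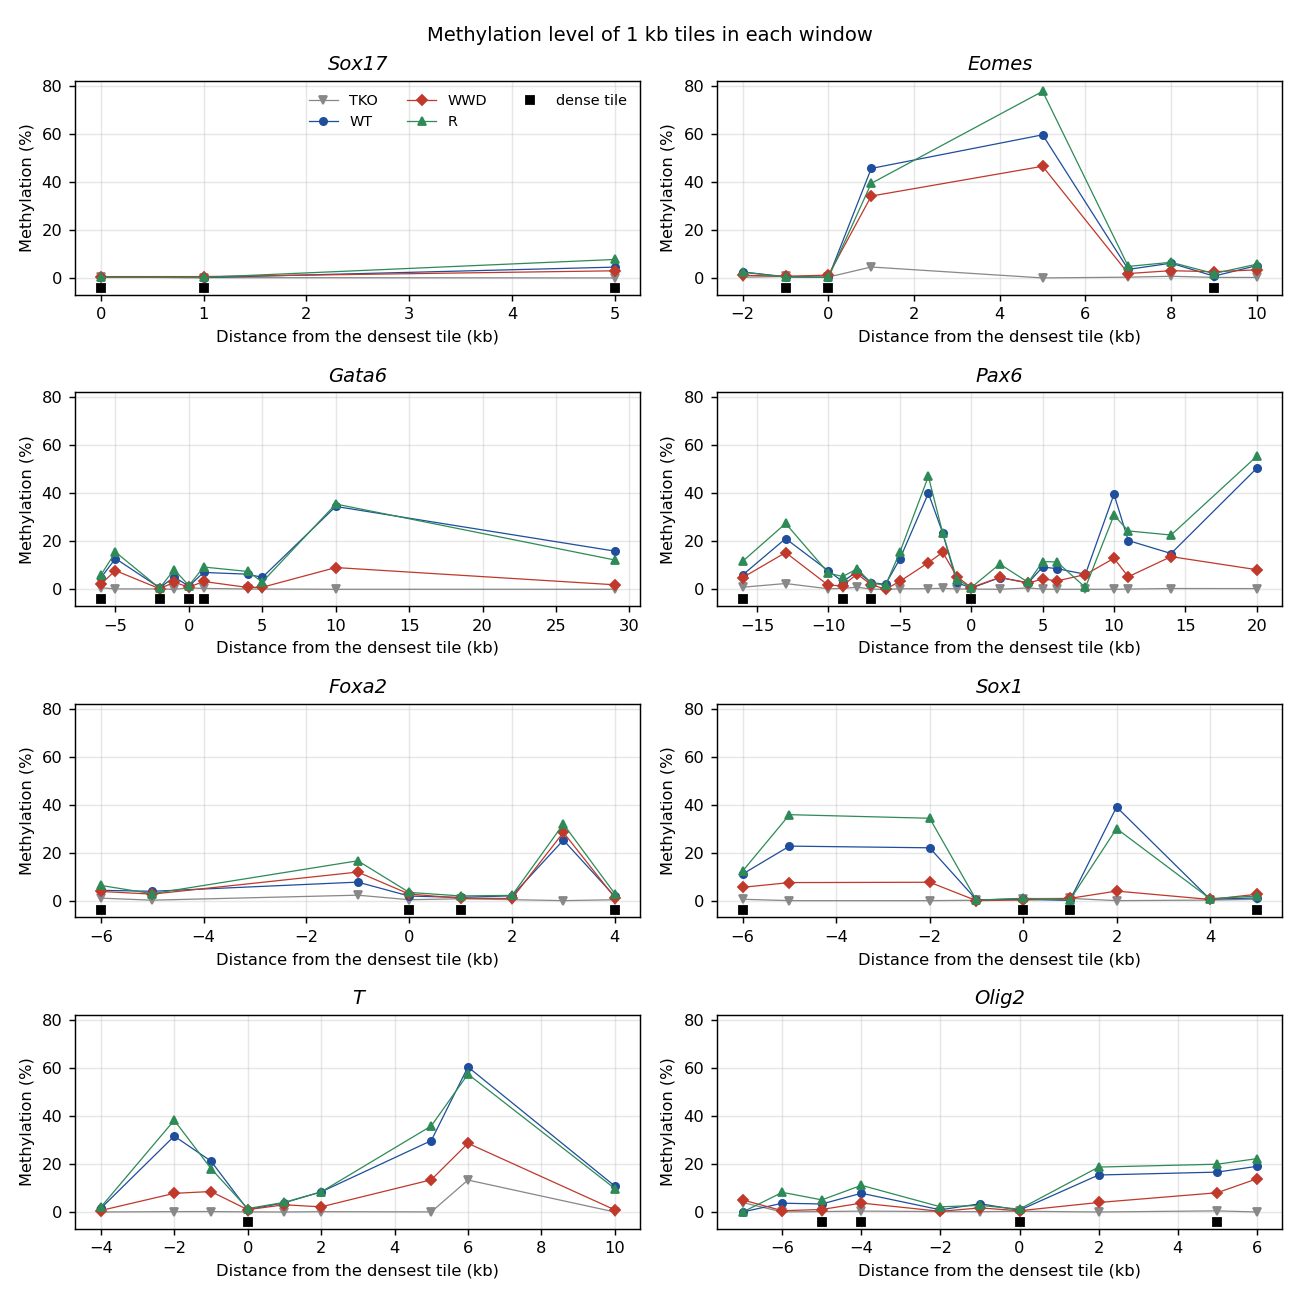
Methylation level of each 1 kb tile (percent, y axis) against its distance from the tile with most common positions of that window (kb, x axis) in TKO, WT, WWD and R, with black squares under dense tiles. Dense tiles lie near 0% in most windows, while tiles with few positions reach 60.4% in WT at T and 59.6% at Eomes, each from 1 CpG position.

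By CpG number per tile, the level in WT at the 8 loci fell from 25.4% in tiles with under 5 positions to 13.2% with 5 to 9, 7.69% with 10 to 19, 3.87% with 20 to 39 and 0.737% with 40 or more. The genome gave 32.0%, 28.7%, 14.9%, 2.49% and 0.512%. Tiles of 5 to 9 positions showed the widest gap below the genome, and the densest tiles lay slightly above it. R stood above WT in each class, from 28.1% with under 5 positions to 1.05% with 40 or more.

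**Figure D3:**
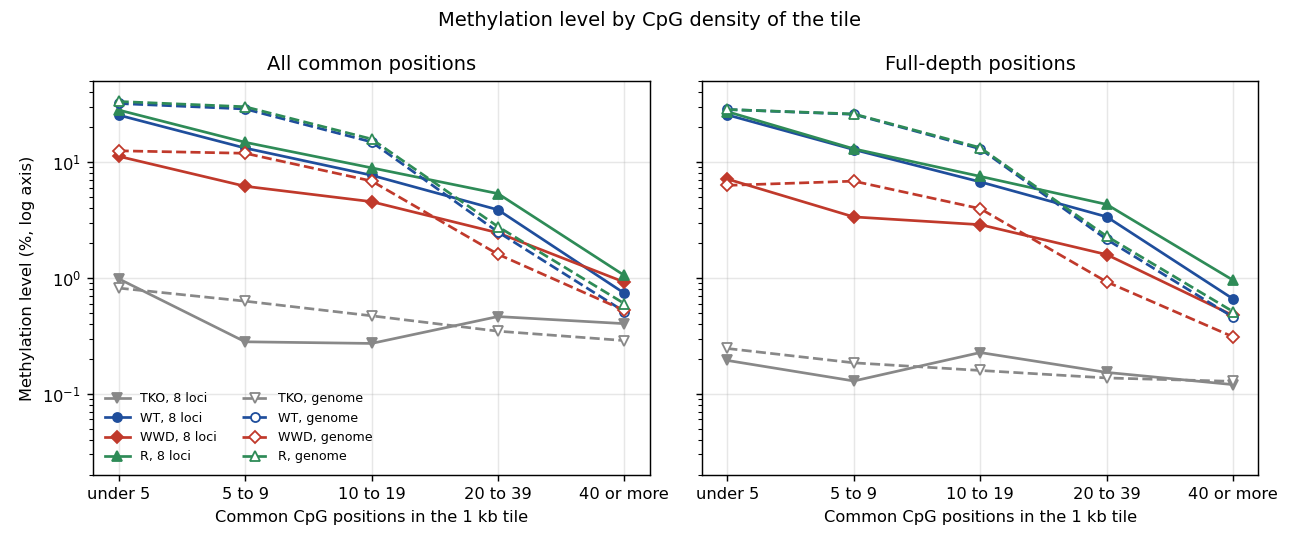
Methylation level (percent, log y axis) in classes of tiles by their number of common CpG positions (x axis) for TKO, WT, WWD and R, with filled symbols and solid lines for the 8 loci and open symbols and dashed lines for the genome. In tiles of 40 or more positions WWD (0.919%) lies above WT (0.737%) over all positions and below it (0.474% against 0.659%) at full depth.

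Summed reads of each tile were put to Fisher's exact test (two-sided). A call needed 10 points or more between the pools and an adjusted p (Benjamini-Hochberg over all tiles of the genome) under 0.01. WT was higher than TKO in 13 of 60 tiles of the 8 loci, against 55.9% of tiles in the genome. Dense tiles made up 27 of the 60, against 13871 of 60727 in the genome, so these shares are not matched for CpG density. These 13 were 5 at Pax6, 3 at Olig2, 2 at T, 2 at Sox1 and 1 at Gata6. Sox17, Foxa2 and Eomes had none. At full depth 7 of 50 tiles were called, against 45.6% in the genome. WWD was higher than TKO in 6 of 60 tiles, against 33.4%, and in 0 of 50 at full depth, against 14.2%, and C differed from TKO in none, against 0.00494% higher and 0.00823% lower. An exact test with each CpG position as a stratum and no minimum difference, added after the data were seen, called WT higher than TKO in 50 of 60 tiles, against 72.8% in the genome. Under that test C was called higher than TKO in 0 of 60 tiles (0.930% in the genome) and lower in 0 (0.542%), but higher in 2 of 50 at full depth (1.24%), 1 at Sox17 (0.667% against 0%) and 1 at Gata6 (0.414% against 0.0394%).

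The 10 tiles without a WT rise under the stratified test lay at Sox17 (2), Eomes (2), Sox1 (5) and Olig2 (1). Both densest tiles of Sox17, chr1:4482001-4483000 and chr1:4483001-4484000, were among them. The first had 76 positions with 0.344% (TKO), 0.185% (C), 0.328% (WT), 0.550% (WWD) and 0.192% (R). The second had 60 positions with 0.122%, 0.422%, 0.151%, 0.564% and 0.225%. WT was thus near the TKO level in both. At full depth the first read 0.188% in WT and 0.158% in WWD, the other direction. The second is the Sox17 tile in which C was called higher than TKO at full depth. In C its reverse-strand position 4483698 read 8.42% of 95 reads. Those at 4483464, 4483471 and 4483477 read 3.92% of 51 reads each. Whether these calls come from the same reads was not tested. The remaining covered tile, chr1:4487001-4488000, was the highest of that window in WT, with 0% (TKO), 0.0845% (C), 4.50% (WT), 2.97% (WWD) and 7.69% (R). WWD was lower than WT in it (stratified exact test, adjusted p = 0.000145) and R was higher (adjusted p = 0.000967).

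Against WT, no tile of the 8 loci was called higher in WWD at 10 points, where 0.0527% of tiles in the genome were, and 6 of 60 were called lower, against 46.9%. At full depth 0 of 50 were higher (0.00225% in the genome) and 5 lower (41.4%). The 6 lower tiles were 2 at T, 2 at Pax6, 1 at Sox1 and 1 at Olig2. A tile below 10% in WT cannot fall by 10 points. The stratified exact test without a minimum called 35 of 60 lower, against 61.6%, and 3 of 60 higher, against 2.06%. At full depth it called 29 of 50 lower, against 56.8%, and 0 higher, against 0.616%.

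The largest falls were in tiles away from the dense cores. At Pax6, chr2:105526001-105527000 (7 positions) was the window's highest tile in WT among those with at least 5 positions. It read 39.6% (WT), 12.9% (WWD), 30.9% (R) and 0% in both TKO and C. At T, chr17:8631001-8632000 (12 positions) read 0.0384% (TKO), 0.632% (C), 29.7% (WT), 13.4% (WWD) and 35.8% (R). WWD was lower than WT in both (Fisher's exact test, adjusted p = 2.22e-05 at Pax6 and 3.28e-29 at T). At full depth the T tile read 27.0% in WT and 7.41% in WWD. The 4 full-depth positions of the Pax6 tile read 50.9% and 10.5%.

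At Sox1, chr8:12394001-12395000 (5 positions, all at full depth) read 22% (WT), 7.65% (WWD), 34.3% (R) and 0% in both TKO and C. WWD was lower (Fisher's exact test, adjusted p = 4.98e-05). Full depth is a ratio to WT coverage, and this tile was thinly read, with 14 to 30 reads per position in WT. Its position 12394425 read 63.3% of 30 reads in WT and 21.6% of 51 in WWD. Those at 12394135 and 12394178 read 0% in both pools. At Olig2, chr16:91233001-91234000 (7 positions) read 0%, 0.232%, 19%, 13.8% and 22.2% in TKO, C, WT, WWD and R, a WWD difference under 10 points. At its 4 full-depth positions, too few for a tile test, the fall was larger, with 16.6% (WT), 2.49% (WWD) and 15.8% (R). At Gata6, chr18:11049001-11050000 (17 positions) read 0.149%, 0.115%, 12.8%, 7.77% and 15.5%, and at full depth 10.0% in WT and 2.81% in WWD. The highest such tiles of the remaining windows were far lower in WT. They were chr9:118396001-118397000 at Eomes, with 6.15% in WT and 3.02% in WWD, and chr2:147864001-147865000 at Foxa2, with 4.30% and 3.83%. At full depth the Foxa2 tile read 3.67% and 1.04%.

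In dense tiles WWD did not exceed WT over the 8 loci as a whole, but did so in some tiles and at reduced-depth positions. The mean level in the 27 dense tiles was 0.432% (TKO), 0.225% (C), 2.24% (WT), 1.65% (WWD) and 3.10% (R). WWD minus WT was -0.583 points (-0.697 to -0.467), beside -0.315 points over the 13871 dense tiles of the genome. At the 681 full-depth positions of these tiles the difference was -1.02 points (-1.14 to -0.905), with 2.08% in WT and 1.06% in WWD. At the 329 reduced-depth positions it was 0.324 points (-0.0445 to 0.723), with 2.56% in WT, 2.88% in WWD and 1.04% in TKO. Olig2 alone carried much of the pooled value, which was -0.291 points (-0.404 to -0.177) without it.

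In the 8 tiles with 40 or more positions the sign turned. WWD read 0.919% there and WT 0.737%, a difference of 0.181 points (0.0745 to 0.291), and WWD was above WT in 5 of the 8. At the 324 full-depth positions of those tiles WWD was again lower, by -0.185 points (-0.285 to -0.0850), and at the 203 reduced-depth positions it was higher, by 0.766 points (0.428 to 1.16). The genome had the same 3 signs, with 0.0125, -0.150 and 0.414 points in that order. The signs at these loci were thus those of the genome.

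Of the 27 dense tiles, WWD was above WT in 9 (33.3%), beside 53.2% of dense tiles in the genome. The differences in those 9 ran from 0.222 to 1.82 points. At their full-depth positions 6 of the 9 stayed above WT, with the largest difference at 0.292 points. Among the 16 tiles with at least 20 full-depth positions, WWD was above WT in 2 (12.5%), beside 39.8% in the genome. The stratified exact test called 3 of the 27 higher in WWD, against 5.32% of dense tiles in the genome, and 14 lower, against 15.8%. At full depth it called 0 of 16 higher (1.51% in the genome) and 8 lower (14.5%).

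**Figure D4:**
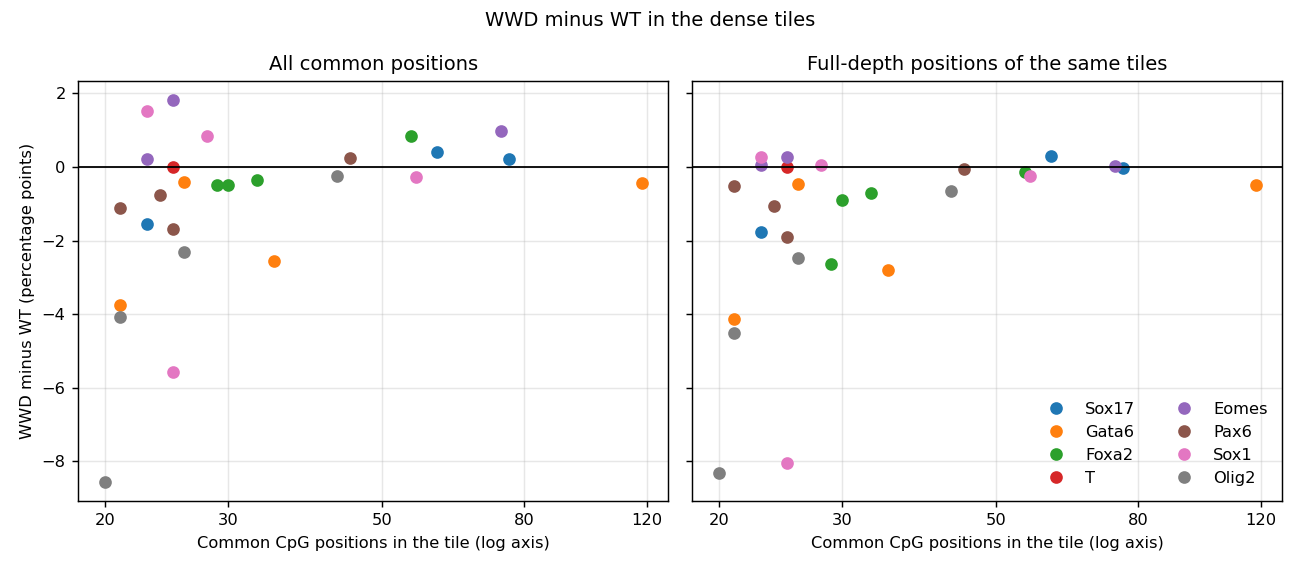
WWD minus WT (percentage points, y axis) in each of the 27 dense tiles against its number of common positions (log x axis), over all common positions (left) and over the full-depth positions of the same tiles (right); each point is a tile, coloured by locus. The positive points reach 1.82 on the left and 0.292 on the right, and the lowest left point is -8.55 at Olig2.

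Eomes was the locus where WWD stood above WT in every dense tile. Over its 122 dense-tile positions WT read 0.358%, R 0.569%, TKO 0.386%, C 0.229% and WWD 1.37%, a WWD difference of 1.01 points (0.792 to 1.24). At the 79 full-depth positions the levels were 0.289% in WT and 0.382% in WWD, a difference of 0.0924 points (-0.0586 to 0.245). At the 43 reduced-depth positions they were 0.484% and 3.18%. The excess in WWD was thus carried by the less deeply read positions and was not detectable at the others.

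Of the 3 tiles called higher in WWD by the stratified test, 2 were at Eomes. The densest, chr9:118388001-118389000 (74 positions), read 0.373% (TKO), 0.281% (C), 0.187% (WT), 1.16% (WWD) and 0.202% (R), with adjusted p = 0.00709 in the stratified exact test. It rested on 23 methylated calls of 7408 in WWD and 19 of 9483 in WT, and at its 46 full-depth positions the levels were 0.179% and 0.144%. The forward-strand CpGs at 118388458, 118388461, 118388482 and 118388496 each had 2 methylated calls of 12 or 13 reads in WWD. Whether these calls come from the same reads was not tested. The other, chr9:118397001-118398000 (25 positions), read 0.221%, 0.0940%, 0.755%, 2.58% and 1.83% in TKO, C, WT, WWD and R (stratified exact test, adjusted p = 0.000326). R was called higher than WT there too (stratified exact test, adjusted p = 0.00167), and at the 17 full-depth positions WT read 0.553%, WWD 0.826% and R 0.825%.

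The remaining one was at Sox1, chr8:12397001-12398000 (28 positions), with 0.929% (TKO), 0.203% (C), 0.0952% (WT), 0.935% (WWD) and 0.272% (R) (stratified exact test, adjusted p = 0.00943). Only 6 of 2081 calls were methylated in WWD and 5 of 4761 in WT. TKO, which has no construct, read as high as WWD in this tile. At its 11 full-depth positions WWD read 0.138% and WT 0.0860%.

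The other dense tiles with WWD above WT were not called. At Sox1, chr8:12401001-12402000 (23 positions) read 1.13% in WT and 2.65% in WWD (stratified exact test, adjusted p = 0.0194), and at full depth 1.0% and 1.27%. At Foxa2, chr2:147870001-147871000, the densest of the window with 55 positions, read 1.91% and 2.74% (adjusted p = 0.785 by the same exact test) and at its 25 full-depth positions 1.91% and 1.77%. At Pax6, chr2:105516001-105517000, the densest with 45 positions, read 0.476% and 0.723%, and at full depth 0.355% and 0.308%. The Sox17 tiles and another Eomes tile, chr9:118387001-118388000 (0.476% in WT and 0.709% in WWD), complete the 9.

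The densest tiles of the remaining loci had WWD at or below WT. At Gata6, chr18:11054001-11055000 held 118 positions, the most of any tile here, with 0.562% (TKO), 0.107% (C), 1.30% (WT), 0.873% (WWD) and 1.54% (R). WWD was lower there (stratified exact test, adjusted p = 9.61e-05) and likewise in the neighbouring chr18:11052001-11053000, with 0.640% in WT and 0.239% in WWD (adjusted p = 0.00324 by the same exact test). At T the only dense tile, chr17:8626001-8627000, had 25 positions, all at full depth, with 0.0541% (TKO), 0.138% (C), 0.962% (WT), 0.961% (WWD) and 1.42% (R).

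At Olig2, chr16:91227001-91228000 (43 positions) read 0.315% (TKO), 0.0389% (C), 0.746% (WT), 0.516% (WWD) and 1.18% (R), and WWD was lower (stratified exact test, adjusted p = 0.00339). At full depth WT read 1.05% and WWD 0.392%. All other dense tiles of Olig2 also had WWD below WT, the nearest to WT being chr16:91222001-91223000 with 3.33% and 1.03%. At Sox1 the densest tile, chr8:12396001-12397000 (56 positions), read 0.835%, 0.213%, 0.515%, 0.253% and 0.985% in TKO, C, WT, WWD and R. At Foxa2, chr2:147871001-147872000 read 1.35% in WT and 0.984% in WWD (1.12% and 0.402% at full depth), and at Pax6, chr2:105509001-105510000 read 2.73% and 1.99%.

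Dense-tile totals per locus followed these tiles. WWD minus WT was -2.97 points (-3.48 to -2.46) at Olig2, -1.15 (-1.39 to -0.906) at Gata6, -0.721 (-1.06 to -0.374) at Sox1 and -0.625 (-0.981 to -0.267) at Pax6. The intervals held 0 at T (-0.000243 points), Foxa2 (0.0367) and Sox17 (0.0393). At full depth Foxa2 moved to -1.01 points (-1.32 to -0.714) and Sox1 to -1.54 (-1.93 to -1.16), and Eomes was the only locus with a value above 0.

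R stood at or above WT across the loci. R minus WT was 1.05 points (0.898 to 1.2) over the 8 loci and 0.675 (0.510 to 0.839) at full depth, beside 0.703 and 0.0966 points over the genome. R was above WT in 8 of 8 loci over all positions, beyond the interval in 7, and in 7 of 8 at full depth, where Eomes differed by -0.0378 points (-0.373 to 0.294). At 10 points no tile was called higher in R, against 1.70% in the genome. The stratified exact test called R higher in 11 of 60 tiles, against 9.98%, and in 8 of the 27 dense tiles, against 6.09%. At full depth it called 3 of 50, against 5.29%, and 1 of 16 dense tiles, against 2.88%. No tile of the 8 loci was called lower in R under either test, against 0.372% of tiles in the genome at 10 points and 2.75% by the stratified test.

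Fisher's exact test was also run on single CpG positions, where a call needed 25 points or more and, again, an adjusted p under 0.01. WT was higher than TKO at 58 of 1386 positions of the 8 loci, against 22.9% in the genome, and WWD was lower than WT at 23, against 15.0%. Shares of positions here and below are not matched for CpG density. The highest WT level was 66.1%, at Pax6 chr2:105513917, with 0% of 131 reads in TKO, 0.719% of 139 in C, 66.1% of 177 in WT, 28.1% of 139 in WWD and 79.3% of 145 in R. A run of 4 full-depth positions at Pax6, chr2:105536467 to chr2:105536660, lay in the tile with the highest WT level of that window, 50.4%, where WWD read 8.16% and R 55.4%. Its number of positions was below the 5 needed for a tile test, but WWD was lower at each of the 4 positions (Fisher's exact test, adjusted p from 7.43e-15 to 3.31e-16).

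WWD was called higher than WT at 8 positions, against 0.258% in the genome, and at 0 of the 984 full-depth positions, against 0.000660%. These 8 were 3 at Pax6, 2 at Sox1 and 1 each at Gata6, Eomes and Olig2. The largest difference was at Pax6 chr2:105503352, with 18.2% of 11 reads in TKO, 0% of 69 in C, 38.3% of 149 in WT, 78.0% of 50 in WWD and 57.9% of 152 in R (Fisher's exact test, adjusted p = 8.08e-06). At Pax6 chr2:105508489 WT read 40.2% of 107 and WWD 72.2% of 36, and at chr2:105515050 WT read 14.0% of 114 and WWD 46.2% of 26.

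At Gata6 chr18:11049940 WT read 35.6% of 118 and WWD 66.7% of 60. At Eomes chr9:118389291 WT read 59.6% of 104 and WWD 86.2% of 58. At Olig2 chr16:91233048 WT read 51.2% of 123 and WWD 79.7% of 64. At these positions methylation was already high in WT, unlike the 2 at Sox1. Those were chr8:12390373, with 2.80% of 107 reads in WT and 28.0% of 25 in WWD, and chr8:12401419, with 1.64% of 122 and 33.3% of 12.

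Without the 25-point minimum, WWD was higher at 12 of 1386 positions, against 0.433% in the genome, and lower at 80, against 25.3%. The 4 positions this added on the higher side were 2 at Foxa2 and 1 each at Eomes and T. At the 11 of reduced depth the coverage was 10 to 27 reads in TKO and 12 to 64 in WWD, against 79 to 169 in WT. R was also above WT at all 11, but a choice by WWD above WT favours low WT values, so that count is no separate result. The one at full depth was T chr17:8626963, with 0% of 145 reads in TKO, 0% of 160 in C, 0% of 186 in WT, 5.11% of 137 in WWD and 0.478% of 209 in R (Fisher's exact test, adjusted p = 0.00885). It lies in the dense tile of T.

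At the 5 placed transcript starts WWD was below WT in each. A share over all promoters was not computed. In the genome WWD was below WT in 47572 of 60727 tiles and in 6485 of 13871 dense tiles. Placement needed at least 8 matched CpGs, so starts with few read CpGs are missing. The measured windows ran from 250 bases before to 50 bases after the start. The highest was Pax6 start 2 (13 positions, all at full depth), with 8.54% (WT), 3.64% (WWD), 12.4% (R) and 0% in both TKO and C. The level there was uneven. Its reverse-strand position 89 bases before the start read 28.7% in WT, 12.7% in WWD and 32.1% in R, and the forward-strand position 130 bases before it read 25.1%, 6.90% and 21.2%. The 2 positions farthest from the start read 0% in both WT and WWD. These are the capitals in the middle and at the left of the second sequence above.

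Pax6 start 1, 13567 bases upstream, was lower, with 0.526% (TKO), 0.0822% (C), 1.94% (WT), 1.03% (WWD) and 2.55% (R) over 19 positions. At its 15 full-depth positions WT read 2.14%, WWD 0.440% and R 1.02%, so that R was below WT there. Foxa2 start 1 had 8 positions, all at full depth, with 0.636%, 0%, 3.66%, 1.68% and 3.64% in TKO, C, WT, WWD and R. Foxa2 start 2, 1021 bases further on in the gene's direction, had 18 positions with 0.20%, 0%, 0.603%, 0.107% and 0.379%. Olig2 start 1 had 7 positions, 4 at full depth, with 0.183%, 0.275%, 0.887%, 0.266% and 2.15%, and at full depth 0.750% in WT and 0.466% in WWD. The starts of 1 gene thus differed, at Pax6 by several points in WT.

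**Figure D5:**
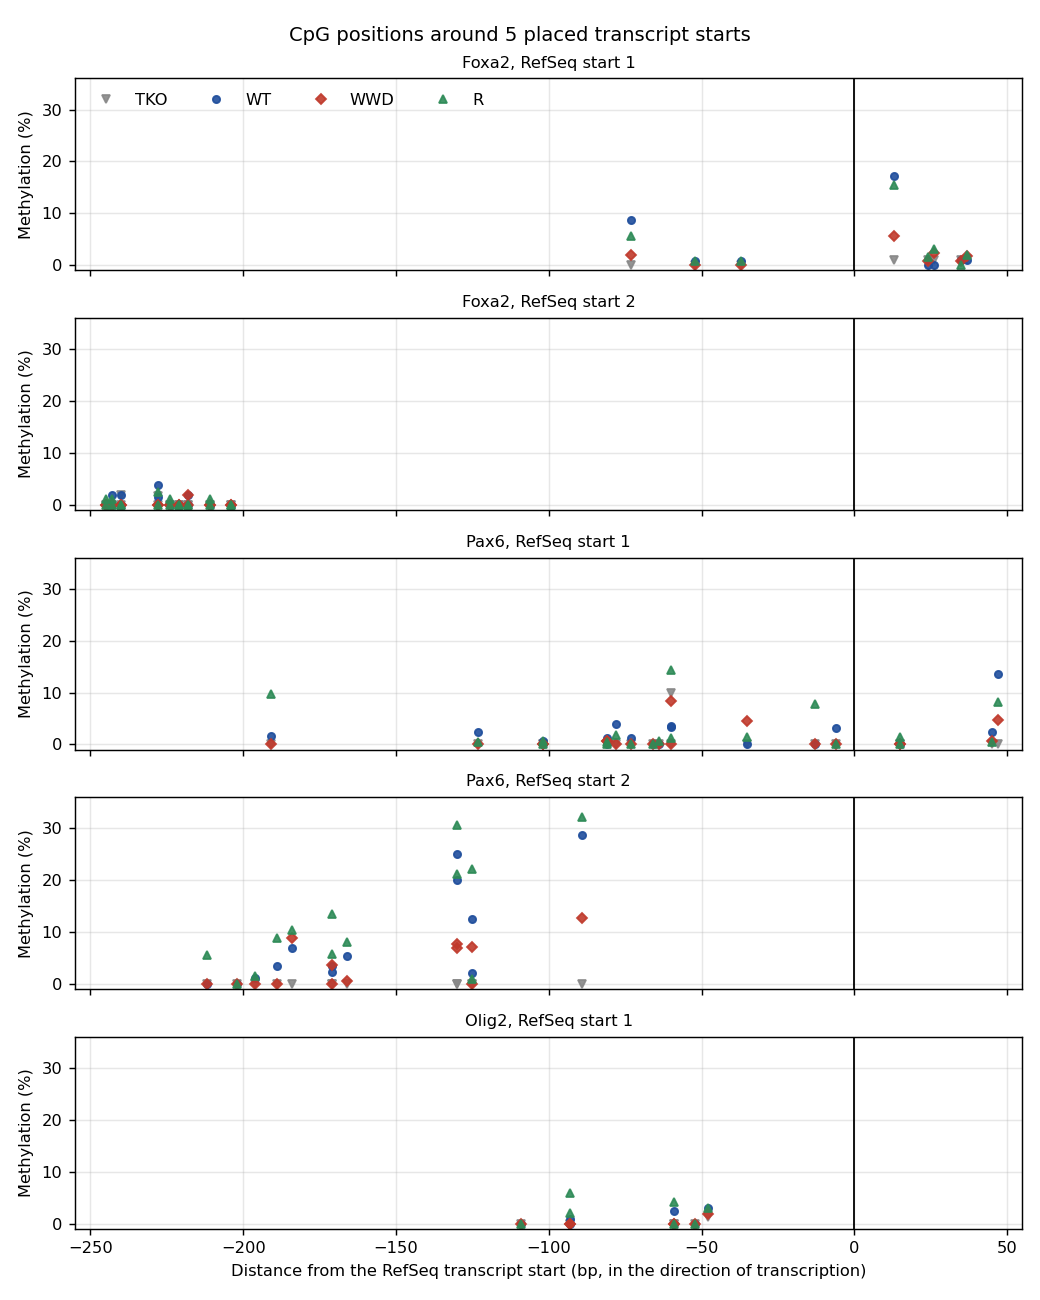
Methylation level (percent, y axis) of each CpG position, strands apart, against its distance from the RefSeq transcript start (bp, x axis, negative before the start) at the 5 placed starts in TKO, WT, WWD and R. Pax6 start 2 reaches 28.7% in WT at 89 bases before the start, while all positions of Foxa2 start 2 stay at or below 3.85% in WT.

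Promoters of other lineage regulators were low as well, but only starts with enough read CpGs could be placed. Of 36 listed genes of the same kind, among them Gata2, Gata3, Pax2, Lhx1 and Msx1, 25 had a sequence at hand and 11 were placed, with 13 starts, of which 11 had common positions. WT ranged from 0% to 3.03% at these 11 starts, with a median of 0.429%. WWD was above WT at 6, below at 4 and equal at 1. At full depth it was above at 2, below at 8 and equal at 1. In dense tiles of the genome WWD was above WT in 7379 and below in 6485 of 13871. At full depth it was above in 4032 and below in 6084 of 10123. At Gata2 start 1, the highest of them in WT, the levels were 0.160% (TKO), 0.536% (C), 3.03% (WT), 3.73% (WWD) and 5.93% (R), and at full depth WT read 2.59% and WWD 1.01%.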

How the data were processed

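DNA cut with MspI was size-selected, converted with bisulfite and amplified, per the labels' protocols. Bismark, methylKit and mm9 stand in the submitters' processing notes, with no version of either tool. The authors' deposited tables give the read count and the percent of reads with C per CpG position and strand, for positions with a coverage of at least 10. Of 6 deposited tables, 5 went into the results. No label ties the remaining one to a sample. It and unused columns of the others held 8 columns of values, which were left out. For 4 groups 1 table serves both numbered samples, and its deposited counts were read as their pool. Reads lost from PCR duplication or uneven fragment recovery cannot be told apart from the files.

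Methylated counts were coverage times percent of C, rounded. Levels are means over positions covered in all 5 tables, the mitochondrial genome left out. Tiles (1000 bp, at least 5 positions) and positions were compared with two-sided Fisher's exact tests, adjusted by Benjamini-Hochberg over the whole genome. An exact conditional test stratified by position was added after seeing the data. Tests were tried on simulated data. RefSeq promoters of GRCm38.p6 were placed on mm9 positions by CpG spacing, unique on the chromosome, without conversion of coordinates. In 4 genes with 2 placed starts, all 4 distances matched those in RefSeq. No annotation of mm9 was used, so exons and introns are not given. Named were all 8 members, for each the tile with most positions, the highest WT tile with at least 5 positions and up to 2 dense tiles with the largest WWD minus WT, and every tile or position called higher in WWD. Other positions and tiles named were picked after their values were seen. The members and lists were chosen with earlier results of these data known. Python 3.11.15, numpy 2.4.6, pandas 2.3.3, scipy 1.17.1, numba 0.67.0 and matplotlib 3.10.9 were used.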

Additional observations from a re-analysis of the deposited data

How the results depend on the processing

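Each result was recomputed under other settings. The stratified test, the reduced-depth class, the removal of single loci and the joint density and depth class were chosen after seeing the data. No paired analysis was possible because the tables do not separate the numbered samples, and leaving out a sample was not possible for the same reason. Causes of the moves below were not tested.

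Mean levels kept the order TKO and C below WWD, WWD below WT and WT below R under the planned settings given here, but not at reduced depth, where WWD read 5.15% and WT 4.82%. With a coverage minimum of 20 they were 0.195% in TKO, 4.48% in WT, 1.92% in WWD and 5.24% in R, and with 30 they were 0.172%, 4.49%, 1.84% and 5.17%. Merged strands gave 0.348% in TKO, 4.96% in WT and 6.0% in R. Reads pooled over positions gave 0.208% in TKO, 4.59% in WT, 2.16% in WWD and 5.63% in R. Each table by itself gave 0.462% (TKO), 0.256% (C), 5.00% (WT), 3.73% (WWD) and 6.35% (R). Full depth gave 0.157% in TKO, 1.82% in WWD and 5.35% in R.

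Tile counts moved with the threshold. WT above TKO was called in 23 tiles at 5 points, 6 at 20 points, 50 at none, 21 with at least 3 positions, 5 with at least 10, 7 at full depth, 8 at coverage 20, and 50 and 39 by the stratified test over all and full-depth positions. WWD below WT was called in 15 at 5 points, 1 at 20, 35 at none, 11 with at least 3 positions, 1 with at least 10, 3 with reads divided by the number of positions, and 35 and 29 by the stratified test. WWD above WT stayed at 0 under every planned setting and was 3 by the stratified test over all positions and 0 at full depth. R above WT was called in 3 at 5 points, 10 at none, and 11 and 3 by the stratified test. WWD above TKO was called in 13 at 5 points, 0 at 20, 43 at none, 2 with at least 10 positions, 1 with divided reads, 0 at full depth, 0 at coverage 20, and 38 and 32 by the stratified test. C above TKO was called in 2 by the stratified test at full depth.

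WWD minus WT in dense tiles was -1.06 points with at least 10 positions, -1.02 at full depth, -0.815 on a grid shifted by 500 bp and -0.999 with reads pooled. It was -0.699 without Sox17, -0.443 without Gata6, -0.801 without Eomes and -0.291 without Olig2. It turned to 0.181 with at least 40 positions per tile and to 0.324 at reduced depth, and was -0.185 with at least 40 positions at full depth. Subtracting TKO from both pools leaves the difference as it was by construction, at -0.583, and at -1.02 at full depth. At Pax6 it turned to 0.247 with at least 40 positions and at Sox1 to 0.180 at reduced depth.

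Positions higher in WT than in TKO numbered 135 at 10 points and 26 at 40, and the 1 lower position was lost at 40 points, at full depth and at coverage 20 (0 each). WWD above WT was called at 0 positions at 40 points, full depth and coverage 20, and WWD below WT at 64 at 10 points and 6 at 40. R above WT was called at 1 position at 10 points and 1 at an adjusted p under 0.05. WWD above TKO was called at 39 at 10 points, 4 at full depth and 7 at coverage 20.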
